A study of Mus musculus with 6 samples.

Results

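Glycogen is the cell's branched store of glucose. Glycogen synthase and the branching enzyme build it from UDP-glucose, and glycogen phosphorylase breaks it down to glucose 1-phosphate. Mammals have 3 phosphorylase isoforms, named for muscle (Pygm), brain (Pygb) and liver (Pygl), and phosphorylase kinase switches them on by phosphorylation. In the brain most glycogen lies in astrocytes, and neurons hold little.

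The 9 genes described here are those of glycogen phosphorylases and glycogen enzymes, out of 21878 gene symbols in the deposited table: Pygm, Pygb, Pygl, Gys1, Gbe1, Ugp2, Phka1, Phkb and Ppp1r3c. They were selected by name, with the large increase of Pygm in these same libraries as the starting point, so their differences between the groups, and their place relative to the thresholds used for all genes, are given as a description and without a P value. RNA was measured in HT22 cells, an immortalized mouse hippocampal neuronal line, in 3 control libraries and 3 libraries of cells exposed to 120 µM aluminum maltolate for 24 h (Al group), all biological replicates of cultured cells of 1 line. The methods describe a control in medium alone, which they name Control, and a maltol control. The paper calls the sequenced group control (C), but the sources used here do not state its medium. The treated libraries carry the letter M in their labels and were taken as the Al group because the study's own comparisons use both names for the same contrast.

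The FPKM values (counted fragments scaled by gene length and library total) rested on 38059492 to 44556768 reads in the control libraries and 21125631 to 26670978 in the Al libraries. The 50 most abundant genes made up 18.0% to 19.4% of a control library (share of summed FPKM) and 30.0% to 32.5% of an Al library. Levels are therefore given as scaled FPKM, the deposited value over a size factor for its library (median of ratios). A gene was called when limma gave an unadjusted P under 0.05 together with a log2 fold change beyond 0.58 in either direction. These are also the thresholds of the published comparison. Of the 12889 genes tested, 26.2% were called higher in the Al group and 24.4% lower. With FPKM as deposited, 25.0% of the called genes were higher in place of 51.8%. The neuronal label was only partly borne out: of 12 neuron markers, 7 had a mean FPKM under 0.1. Among those 7, Nefm and Snap25 had 0 reads in all 6 libraries and Map2 had 2 reads in 1 library. Tubb3 and Dlg4 were present, at 2.999 to 4.94 and 7.09 to 12.5 scaled FPKM, and Eno2 at 1.08 to 3.57. Syp and Elavl3 reached at most 0.409 and 0.364. In bulk RNA, fewer cells expressing a gene and less of its RNA per cell cannot be told apart.

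Of the 9 genes, 7 had enough signal to be fitted (a mean FPKM of at least 0.1). Pygm was past both thresholds in the upward direction, Gys1 and Phka1 in the downward direction, and Pygb, Gbe1, Ugp2 and Phkb were past neither bound on the fold change. That is 1 of 7 higher and 2 of 7 lower, where 26.2% and 24.4% of all tested genes were called, and nothing is read from these counts because the genes were chosen on this contrast. The median log2 fold change of the 7 was -0.39, against 0.03 for all tested genes. The values of the groups did not overlap for 6 of the 7, and for 68.1% of all tested genes.

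**Figure D1:**
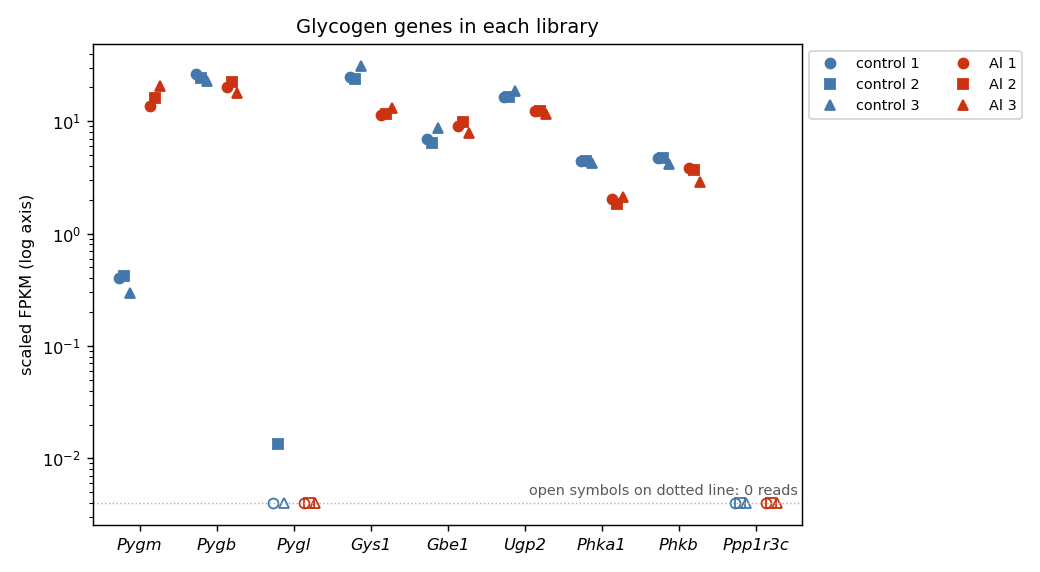
Scaled FPKM (log axis) of the 9 glycogen genes in the 3 control libraries (blue) and the 3 Al libraries (red), with a symbol for each replicate and open symbols for 0 reads. Pygm moves from 0.293 to 0.418 in control cells to 13.5 to 20.7 in the Al group, while Gys1 and Phka1 are lower in the Al group and Pygl and Ppp1r3c are at or near 0.

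The promoters of the 3 genes past both thresholds are shown here, since the regulatory sequence in front of them is where a reader would look first. They come from RefSeq on GRCm38.p6 and run 5′ to 3′ from base 250 to base 11 before the annotated start. Capitals mark every match, on either strand, to any of 3 motifs: ACGTG or GCGTG (the core of a hypoxia response element), CAGCTG (an E-box that myogenic factors can bind) and TGCACNC or TGCGCNC (the core of a metal response element). Neighbouring capitals can belong to overlapping matches.
Pygm, chr19:6384158-6384397, plus strand: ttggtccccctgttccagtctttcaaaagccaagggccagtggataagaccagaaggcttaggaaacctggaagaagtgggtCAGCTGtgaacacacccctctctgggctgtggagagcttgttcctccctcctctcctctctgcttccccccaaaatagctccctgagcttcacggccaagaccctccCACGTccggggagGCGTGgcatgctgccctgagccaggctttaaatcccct
Gys1, chr7:45434589-45434828, plus strand: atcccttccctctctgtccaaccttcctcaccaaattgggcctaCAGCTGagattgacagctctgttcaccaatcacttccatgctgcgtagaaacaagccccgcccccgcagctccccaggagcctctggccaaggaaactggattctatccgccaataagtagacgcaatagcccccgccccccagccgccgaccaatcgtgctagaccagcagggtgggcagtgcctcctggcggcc
Phka1, chrX:102644257-102644496, minus strand: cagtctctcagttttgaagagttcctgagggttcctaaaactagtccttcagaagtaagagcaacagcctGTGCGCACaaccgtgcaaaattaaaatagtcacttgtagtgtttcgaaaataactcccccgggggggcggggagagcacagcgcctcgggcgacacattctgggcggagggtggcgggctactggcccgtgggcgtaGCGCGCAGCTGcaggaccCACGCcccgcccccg

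The hypoxia core was present in the promoters of Pygm (61 and 48 bases before the start) and Phka1 (25 bases before it) and not in that of Gys1. The E-box was present in all 3, and the metal core in Phka1 only among these 3. Over all 9 genes, 7 had the hypoxia core, Pygb and Ugp2 among them, 5 had the E-box and 5 the metal core. For comparison, in windows of the same 240 bases, 37.4% of 32851 mouse promoters held the hypoxia core, 12.4% the E-box and 20.4% the metal core. Counted by promoter, the 9 genes had 10, of which 7 held the hypoxia core, 5 the E-box and 5 the metal core. Each of these is a larger share than among all promoters, and the difference was not tested. These are matches of letters, and no binding was measured.

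Pygm encodes the muscle isoform of glycogen phosphorylase and lies on the plus strand at chr19:6384399-6398459 (GENCODE, GRCm38), where no other annotated gene overlaps it. Its scaled FPKM was 0.402, 0.418 and 0.293 in control replicates 1 to 3 and 13.5, 16.1 and 20.7 in Al replicates 1 to 3. Every Al library was far above every control library. The values rested on 52, 63 and 44 reads in the control libraries, against on 830, 825 and 1168 in the Al libraries, which were sequenced less deeply. The ratio of the group means was 45.2, and the log2 fold change on the scale with the pseudocount of 0.1 was 5.15 ± 0.20 (SE, n = 3 each).

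Because the pseudocount pulls a low control level towards it, the size of this log2 fold change depended on it, from 3.68 with a pseudocount of 1 to 5.46 with 0.01. The direction did not: with FPKM as deposited the value was 4.71, with every library scaled to the same sum 4.45, and without any single library it stayed between 5.01 and 5.31. By size of the log2 fold change at the pseudocount of 0.1, Pygm held rank 4 of the 12889 tested genes and rank 4 of the 10325 with a mean scaled FPKM of at least 1. The gene just above it was Ifna13, at 5.22, and the gene just below it was Scgb1c1, at 4.86. This order rests on the pseudocount: by the ratio of group means, Scgb1c1 (90.2) and Il17f (47.7) were above Pygm (45.2).

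Pygb, the brain isoform, was the main phosphorylase mRNA of the control cells, and lies at chr2:150786735-150831758. Its scaled FPKM was 26.3, 23.99 and 22.9 in the control libraries, against 20.2, 22.2 and 18.0 in the Al libraries. The Al values lay just below the control values, with a log2 fold change of -0.28 ± 0.11 (SE), short of the fold change threshold. With FPKM as deposited Pygb fell past that threshold, to -0.76.

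Pygl, the liver isoform (chr12:70190811-70231488), had 2 reads in control replicate 2 and 0 in the other 5 libraries. In the libraries with 0 reads, counting error leaves room for up to 3 expected reads, so a difference between the groups was not detectable at this depth. The phosphorylase mRNA of these cells was thus that of Pygb and Pygm.

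The balance between the isoforms can be read within each library, where it does not depend on the scaling. Pygm made up 1.51%, 1.71% and 1.27% of the summed phosphorylase FPKM in the control libraries, against 40.1%, 42.1% and 53.5% in the Al libraries. The groups were far apart, with means of 1.49% ± 0.224 and 45.2% ± 7.21 (SD, n = 3 each). In Al replicate 3 Pygm was above Pygb, whereas in Al replicates 1 and 2 Pygb was still the higher of the pair. Pygb outnumbered Pygm 66.9 ± 10.4 times in control cells and 1.247 ± 0.331 times in the Al group (ratios of FPKM).

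The summed phosphorylase level was 26.7, 24.4 and 23.2 scaled FPKM in the control libraries, against 33.7, 38.4 and 38.7 in the Al libraries. The Al libraries were higher, 36.9 ± 2.77 against 24.8 ± 1.79 (SD, n = 3 each). This sum depended on the scaling: with FPKM as deposited it was 29.4 ± 2.21 in control cells and 31.4 ± 4.50 in the Al group, a difference smaller than the spread of the Al libraries.

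**Figure D2:**
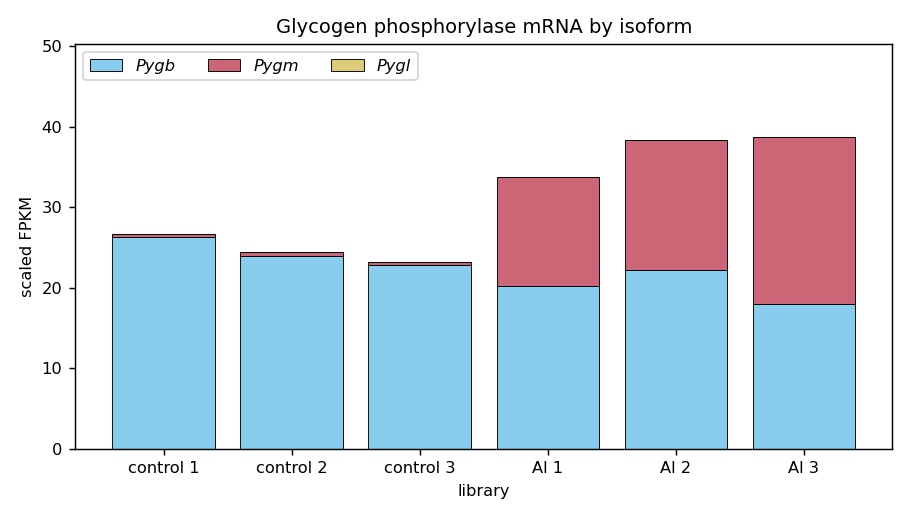
Scaled FPKM of the 3 glycogen phosphorylase genes stacked by library, with Pygb in blue and Pygm in red; Pygl is too low to be seen. Pygm takes 1.27% to 1.71% of the summed deposited FPKM in the control libraries and 40.1% to 53.5% in the Al libraries.

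On the synthesis side, Gys1 encodes the synthase isoform of muscle and most other tissues, and lies at chr7:45434844-45456619. Its scaled FPKM was 24.6, 23.5 and 31.1 in the control libraries, against 11.3, 11.7 and 13.2 in the Al libraries. All 3 Al libraries were well below the lowest control library, 2.19-fold in the means, with a log2 fold change of -1.12 ± 0.13 (SE). Gys1 overlaps Ruvbl2 on the opposite strand, and although the library kit keeps the strand, the sources used here do not say whether reads were counted by it, so its value carries that uncertainty.

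Summed phosphorylase and Gys1 were at similar levels in the control libraries, with FPKM ratios of 1.08, 1.04 and 0.745. In the Al libraries the ratio was 2.99, 3.28 and 2.94. The group means were 0.956 ± 0.184 and 3.07 ± 0.184 (SD, n = 3 each), and this ratio is also free of the scaling between libraries.

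Ugp2 makes UDP-glucose, the sugar donor of glycogen synthase, and lies at chr11:21321138-21371201. Its scaled FPKM was 16.4, 16.4 and 18.4 in the control libraries, against 12.2, 12.4 and 11.5 in the Al libraries. The groups did not overlap, and the log2 fold change of -0.50 ± 0.10 (SE) was short of the threshold. A noncoding transcript on the opposite strand and the microRNA gene Mir1933 on the same strand overlap it.

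Gbe1 encodes the branching enzyme and lies at chr16:70313949-70569716. Its scaled FPKM was 6.98, 6.43 and 8.65 in the control libraries, against 8.99, 9.83 and 7.82 in the Al libraries. The groups overlapped, and the log2 fold change of 0.27 ± 0.15 (SE) turned to -0.21 with FPKM as deposited and to -0.50 with equal sums, so that no direction can be given for Gbe1.

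Phka1 and Phkb encode the regulatory alpha (muscle type) and beta subunits of phosphorylase kinase. Phka1, at chrX:102513975-102644246, was at 4.47, 4.42 and 4.28 scaled FPKM in the control libraries and at 2.03, 1.83 and 2.10 in the Al libraries. The replicates were tight in both groups and the Al level was 2.21-fold lower, with a log2 fold change of -1.11 ± 0.14 (SE). Phkb, at chr8:85840959-86061376, was at 4.67, 4.74 and 4.12 in the control libraries and at 3.81, 3.65 and 2.86 in the Al libraries. Its Al values were all below its control values, but its log2 fold change of -0.39 ± 0.15 (SE) was short of the threshold and ranged from -1.16 with equal sums to -0.09 with quantile normalization. Phkb overlaps a noncoding transcript on its own strand and a pseudogene on the other.

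Ppp1r3c encodes a subunit that targets protein phosphatase 1 to glycogen, and lies at chr19:36731731-36736653. It had 0 reads in all 6 libraries, a count that leaves room for up to 3 expected reads in each.

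In the order of levels, Gys1 (26.4 ± 4.10, mean scaled FPKM ± SD) and Pygb (24.4 ± 1.74) led in the control group and their ranges overlapped. Ugp2, Gbe1 and then Phkb followed, each below the range of the gene before it, and Phkb and Phka1 overlapped. Pygm, at 0.371 ± 0.068, was well below these and above Pygl and Ppp1r3c. In the Al group Pygb (20.1 ± 2.11) and Pygm (16.8 ± 3.62) led with overlapping ranges, and Ugp2 and Gys1 came next, also overlapping. Pygm thus moved from position 7 of 9 to position 2, and Gys1 from position 1 to position 4.

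**Figure D3:**
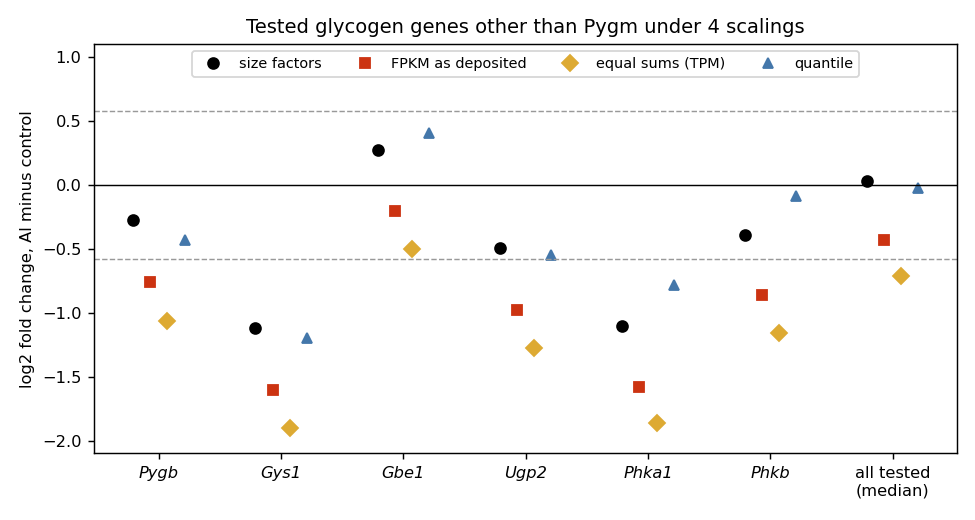
Log2 fold change (Al minus control) of the 6 tested glycogen genes other than Pygm under 4 ways of scaling the libraries, with the median of all tested genes at the right and the bounds of 0.58 dashed. Gys1 and Phka1 are below the lower bound under all 4 scalings, Gbe1 changes sign, and Pygb, Ugp2 and Phkb pass the lower bound with FPKM as deposited and with equal sums (TPM).

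The other glycogen genes were listed by function. Of 9 further enzymes and enzyme-like proteins, 6 were tested: 2 were lower in the Al group, 0 were higher and 4 passed neither way, where 24.4% of all tested genes were lower and 26.2% higher. None of the 6 had a positive log2 fold change at an unadjusted P under 0.05 in limma, and limma voom on the recovered reads also called 0 higher. Gyg, the glycogenin that primes a new glycogen particle, was at 55.4 to 63.2 scaled FPKM in the control libraries and at 30.3 to 34.2 in the Al libraries (log2 fold change -0.89 ± 0.10, limma adjusted P = 0.000108). Pgm2l1, which makes glucose 1,6-bisphosphate, was at 1.68 to 1.78 and 0.294 to 0.709 (-1.79 ± 0.29, limma adjusted P = 0.000799).

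The groups did not overlap for either of these genes, as for 68.1% of all tested genes. The median log2 fold change of the 6 was -0.38, against 0.03 for all tested genes. The 4 genes that did not pass, Pgm1, Pgm2, Gaa and Epm2a, had log2 fold changes from -0.51 to 0.58, and Gys2 and Nhlrc1 had 0 reads throughout. Pgm2 passed with quantile normalization (-0.69), with FPKM as deposited (-1.0), with equal sums (-1.30) and without Al replicate 3 (-0.77). Pgm1 passed with FPKM as deposited (-0.73) and with equal sums (-1.03), Gaa passed with equal sums (-0.70), and Epm2a passed upwards without control replicate 1 (0.98).

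Of 22 genes of kinases, phosphatases and sensors that act on glycogen enzymes, 18 were tested, with 1 higher, 5 lower and 12 that passed neither way. Among all tested genes 26.2% were higher and 24.4% lower. The lower share is thus near that of all genes and the higher share is below it, a difference that was not tested. The median log2 fold change was 0.00, with 9 values above 0 and 9 below. Prkab1, a glycogen-binding beta subunit of AMP-activated protein kinase, was at 13.8, 12.9 and 12.9 scaled FPKM in the control libraries and at 50.95, 49.3 and 42.3 in the Al libraries. It rose in every Al library (1.84 ± 0.10, limma adjusted P = 6.69e-06), while for its relative Prkab2 the log2 fold change was -0.20 ± 0.24 (limma adjusted P = 0.483).

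Among the lower genes, 2 encode subunits that bring protein phosphatase 1 to glycogen. Ppp1r3d was at 1.11, 1.25 and 0.522 in the control libraries and at 0.0861, 0.103 and 0.171 in the Al libraries (-2.21 ± 0.37, limma adjusted P = 0.000888). Ppp1r3e was at 0.994, 1.101 and 0.733 and at 0.151, 0.243 and 0 (-2.33 ± 0.46, limma adjusted P = 0.00221). Both rest on few reads in the Al group, at most 11 per library. Ppp1r3f, the other tested subunit of this family, was at 2.23 to 2.62 and 2.78 to 3.52, with a log2 fold change of 0.42 ± 0.16 that was short of the threshold.

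Phka2, the liver-type alpha subunit of phosphorylase kinase, was at 11.3 to 14.2 in the control libraries and at 6.60 to 8.05 in the Al libraries (-0.79 ± 0.13, limma adjusted P = 0.000743). Gsk3b, a kinase that inhibits glycogen synthase, was at 20.003 to 22.2 and 10.3 to 11.2 (-0.94 ± 0.10, limma adjusted P = 6.39e-05). Prkag2, a nucleotide-sensing gamma subunit of AMP-activated protein kinase, was at 2.14 to 2.98 and 1.41 to 1.72 (-0.66 ± 0.19, limma adjusted P = 0.0135). Both alpha subunits of phosphorylase kinase were therefore lower. For the catalytic gamma subunits the log2 fold changes were 0.38 ± 0.41 (Phkg1) and 0.35 ± 0.14 (Phkg2), and neither was called.

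Prkag2 is the least firm of these: its call was lost without Al replicate 2 (-0.57), without control replicate 3 (-0.56), with quantile normalization and with a pseudocount of 1. Gsk3a stood at -0.55 and passed with quantile normalization (-0.75), with voom (-0.58), with FPKM as deposited (-1.04) and with equal sums (-1.34), and also without Al replicate 2 (-0.63), control replicate 1 (-0.59) or control replicate 2 (-0.59), and Phkg1 passed upwards without Al replicate 1 (0.80).

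**Figure D4:**
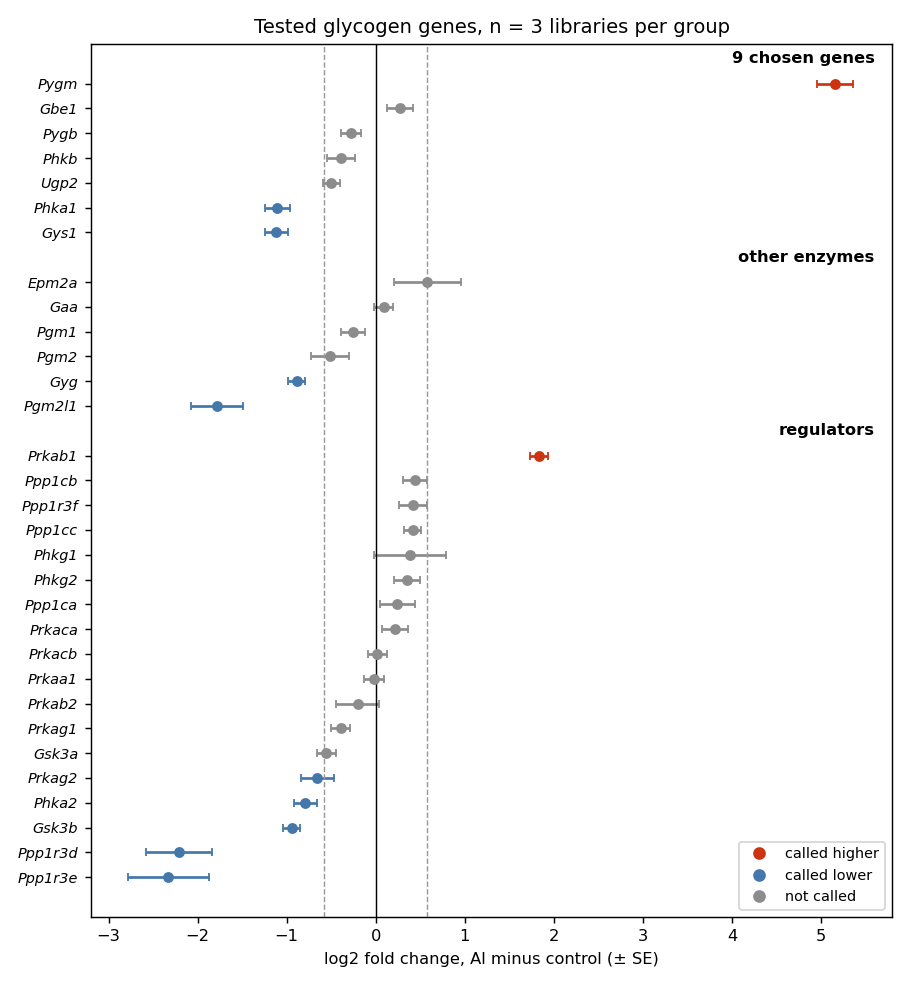
Log2 fold change (Al minus control, points) with its SE (bars) for the tested glycogen genes in 3 lists, with red for genes called higher, blue for genes called lower and grey for the others; dashed lines stand at the bounds of 0.58. Pygm at 5.15 and Prkab1 at 1.84 are the genes called higher, and 9 genes over the 3 lists are called lower.

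Pygm was set against its neighbours on chromosome 19, the 3 nearest protein-coding genes on each side, which were not chosen by any value. Of these 6 genes, 5 were fitted, with 3 called higher in the Al group and 1 lower (26.2% and 24.4% of all tested genes), a count that supports nothing because 2 of the 3 passed the filter only where they are high. Rasgrp2, a guanine nucleotide exchange factor that starts 880 bases beyond the end of Pygm on the same strand, was at 0.0517, 0.0166 and 0.0529 scaled FPKM in the control libraries and at 0.925, 1.63 and 2.49 in the Al libraries. Every Al library was above every control library, with a log2 fold change of 3.58 ± 0.38 (SE). The next gene, Nrxn2, a presynaptic adhesion protein, was at 0.0402 to 0.0666 and 0.372 to 0.587 (1.94 ± 0.32), and was not called with a pseudocount of 1. Rasgrp2 and Nrxn2 reached the filter on low values through the Al group alone, so they had to differ between the groups, and no P is given for them.

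On the other side, Sf1, a splicing factor that ends 6368 bases before Pygm on the same strand, is expressed at a much higher level. It was at 71.1, 67.9 and 69.2 in the control libraries and at 144, 139 and 124 in the Al libraries (0.96 ± 0.10, limma adjusted P = 9.15e-05). Without size factors, on FPKM as deposited, its log2 fold change was 0.48; it was 0.18 with equal sums and 0.40 with quantile normalization, all under the threshold. Map4k2, a kinase farther upstream, was lower in the Al group (-1.23 ± 0.22, limma adjusted P = 0.00144).

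Men1, the farthest of the upstream genes, had a log2 fold change of -0.28 ± 0.09 (limma adjusted P = 0.0258), short of the fold change threshold. Slc22a12, a transporter, had 0 to 10 reads per library and was not tested. The neighbours of Pygm thus moved in both directions, and whether reads on Pygm, Rasgrp2 and Nrxn2 came from 1 transcript or several was not tested.

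**Figure D5:**
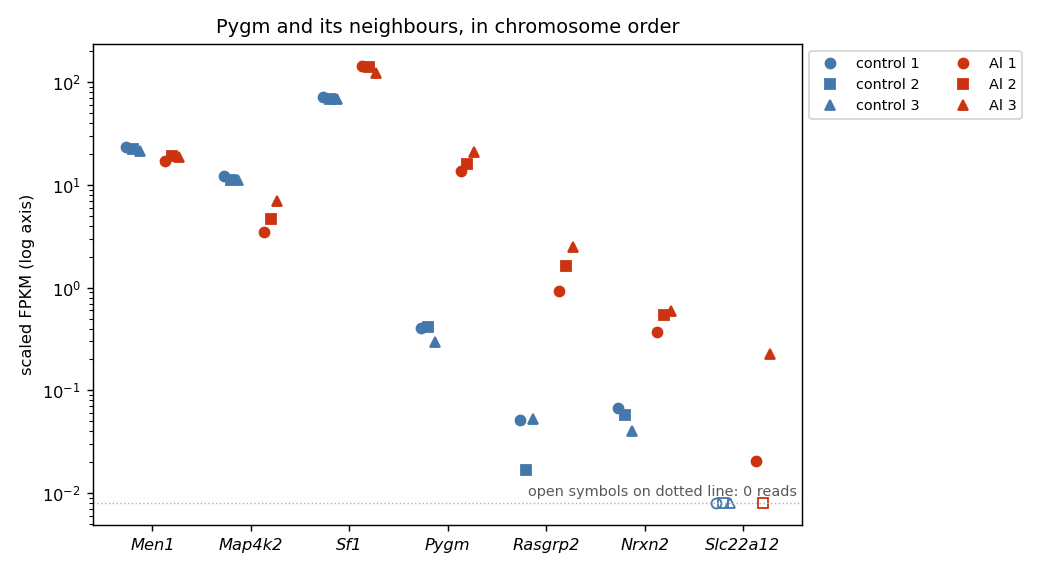
Scaled FPKM (log axis) of Pygm and the 3 nearest protein-coding genes on each side, in chromosome order, in the 3 control libraries (blue) and 3 Al libraries (red), with open symbols for 0 reads. Pygm, Rasgrp2 and Nrxn2 are higher in all 3 Al libraries, Map4k2 is lower, and Sf1 is the most abundant gene in both groups.

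Since Pygm is named for muscle, 16 skeletal muscle marker genes were looked at beside it. Of these, 9 were tested, 4 were higher in the Al group and 1 was lower (26.2% and 24.4% of all tested genes). Acta1, skeletal actin, was at 0.0728 to 0.158 scaled FPKM in the control libraries and at 1.64 to 2.78 in the Al libraries (3.41 ± 0.29, limma adjusted P = 3.09e-05). Tnnc2, a troponin (2.14 ± 0.26, limma adjusted P = 0.000153), Ryr1, the calcium release channel (1.11 ± 0.14, limma adjusted P = 0.000209), and Ckm, muscle creatine kinase (1.71 ± 0.47, limma adjusted P = 0.0118), were also higher. Ckm rests on few reads, 8, 16 and 0 in the control libraries and 12 to 20 in the Al libraries.

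Des, the muscle intermediate filament, was at 3.70 to 3.82 and 1.22 to 2.24 and was lower (-1.03 ± 0.23, limma adjusted P = 0.00401). The 4 tested markers that were not called had log2 fold changes from -0.70 (Mylpf) to 0.50 (Atp2a1), 3 of them below 0. The summed level of the 16 genes ranged from 15.3 to 15.9 scaled FPKM in the control libraries and from 27.0 to 35.3 in the Al libraries. Ryr1 was the largest part of that sum in both groups (8.49 to 9.35 and 15.6 to 21.8), followed by Des in the control libraries and by Tnnc2 in the Al libraries (1.21 to 1.92 and 4.84 to 8.97). The defining genes of the lineage stayed at or near 0: Myod1 had at most 1 read per library, Myog at most 3, Myh1 at most 4 and Myh2 at most 1.

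Other cell type markers moved in both directions, and their counts stand beside 26.2% higher and 24.4% lower among all tested genes. Of the 8 astrocyte markers, 5 were tested. Gja1 was higher (1.20 ± 0.12, limma adjusted P = 6.36e-05) and Slc1a3 lower (-2.96 ± 0.24, limma adjusted P = 2.36e-05), and Aqp4 was at 0 throughout. The summed astrocyte list was at 46.6 to 58.1 scaled FPKM in the control libraries and 53.3 to 68.1 in the Al libraries, but its order turned with FPKM as deposited (54.7 to 68.8 and 47.7 to 55.5). Of the 6 microglia markers 4 were tested, and 3 of these were not called. Tmem119, the most abundant, was at 33.0 to 40.5 and 22.8 to 89.8, so that the groups overlapped, and Aif1 had a log2 fold change of -0.71 ± 0.32. Cx3cr1 was at 0.0305 to 0.0768 in the control libraries and 0.398 to 1.12 in the Al libraries, with P2ry12 at 0. Of the 6 hepatocyte markers Apoa1 had 0 reads in the control libraries and 2 to 12 in the Al libraries, with Ttr at 0. Cx3cr1 and Apoa1 also passed the filter through the Al group alone, and no P is given for them. Of the 12 neuron markers 5 were tested and 0 were called by limma or by limma voom on the recovered reads, with 1 at an unadjusted P under 0.05 (Dlg4, -0.52 ± 0.14). All these levels come from cultures of 1 cell line, and whether the markers bear on the level of Pygm was not tested.

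The 5 genes whose centred log2 levels over the 6 libraries lay closest to those of Pygm were found among genes with a mean scaled FPKM of at least 1, by Euclidean distance. They were Scgb1c1, a secretoglobin (distance 0.63), the predicted loci LOC108168644 (0.68) and LOC108168534 (0.89), the cytokine gene Il17f (1.005) and the interferon gene Ifna13 (1.19). Il17f was at 0.125, 0.0487 and 0.0781 scaled FPKM in the control libraries and at 3.68, 4.07 and 4.25 in the Al libraries. Scgb1c1 had 1 read in each control library and 34 to 37 in each Al library. These genes were chosen for their likeness to Pygm, so no test is given, and Ifna13 has close relatives that can share its reads.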

How the data were processed

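RNA was measured in 6 input libraries of a MeRIP-seq study (fragmented RNA without enrichment for m6A). The authors deposited FPKM values for 21878 gene symbols in each library, without further scaling. The methods name Trimmomatic, SortMeRNA and HISAT2 on GRCm38, the submitters' processing notes name fastp, HISAT2, HTSeq and GRCm39, and the series' design text names another genome, so the build behind the FPKM is not settled. Only gene symbols were used from the table, and coordinates and promoters are those of GENCODE and RefSeq on GRCm38, where all 9 genes were found.

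Whole reads behind the FPKM values were recovered for all 17688 genes above 0. Size factors (medians of ratios, from 0.802 to 1.21) used genes that were above 0 in every library and had a mean FPKM of 1 or more. Genes whose mean FPKM reached 0.1 entered limma 3.58.1 (R 4.3.3) on log2(scaled FPKM + 0.1), lmFit and eBayes with trend, over all 6 libraries without covariates. A fold change on this scale understates that of low genes. P values were adjusted by Benjamini-Hochberg across the 12889 tested genes. The steps were tested on simulated data in which few genes changed, as many up as down. That setting lacks the wide change in library composition seen here, so it does not show how the scaling behaves under it.

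The 9 genes and the gene lists were chosen with earlier results of these data known. Named are all 9, every called gene of the other lists, the 3 neighbours on each side of Pygm and the 5 genes most like it. Genes that did not pass, other than these, were named after their values were seen. The alternatives changed the scaling, pseudocount, filter, trend, threshold and fit, and left out each library in turn. The m6A libraries were not analysed here, and 1 further enzyme of the lists is not reported here. Tables were handled with Python 3.11.15 and pandas 2.3.3.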

Additional observations from a re-analysis of the deposited data

How the results depend on the processing

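For the number of all genes called higher or lower, the scaling mattered most among the choices tried here, while the fold change of Pygm moved more with the pseudocount. The median change of a gene's log2 value from the main scaling was -0.48 with FPKM as deposited and -0.77 with equal sums (TPM). Genes called higher and lower then numbered 1805 and 5417 (deposited) or 1200 and 6843 (TPM), in place of 3375 and 3143. Of the 9 glycogen genes 5 were then lower under either, the added genes being Pygb, Ugp2 and Phkb. Lower calls among the other enzymes rose to 4 and 5, among the regulators to 8 and 10, and among the neighbours of Pygm to 2 and 2. With quantile normalization 3 regulators were higher (Phkg2 and Ppp1r3f added). With a mean FPKM of at least 1, 3 regulators were lower and 1 neighbour was higher, since fewer genes were tested. Counted in reads, which favours the longer Pygb, the share of Pygm was 1.12% (control) and 38.3% (Al).

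Without single libraries, 3197 to 3468 genes were higher and 2962 to 3294 lower. The 9 genes kept 1 higher and 2 lower, and the neighbours 3 and 1. The other enzymes had 0 to 1 higher (Epm2a without control replicate 1) and 2 to 3 lower, the regulators 1 to 2 higher (Phkg1 without Al replicate 1) and 4 to 6 lower. The share of Pygm was 1.39% to 1.61% (control) and 41.1% to 47.8% (Al).

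Replicate numbers are shared between the groups, but same-numbered libraries did not deviate together (correlations -0.033, -0.026 and -0.073). With the replicate number as a block, 3352 genes were higher and 3123 lower, and no glycogen gene or neighbour changed its call. The causes of these changes were not tested. Depth limits Pygl, Ppp1r3c, Ppp1r3d, Ppp1r3e and Ckm.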

Other observations

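Il17f, Scgb1c1, Ifna13 and some of the glycogen genes can be read beside the nearest protein-coding gene before them on the same strand. Before Il17f lies Mcm3, a replication licensing gene, which ends 12350 bases before it and was at 134, 131 and 143 scaled FPKM in the control libraries, against 346, 365 and 345 in the Al libraries. Before Scgb1c1 lies Urah, at a distance of 7580 bases, with 0 in the control libraries, against 3.31, 1.77 and 0.999 in the Al libraries. For Pygb the gene before it is Entpd6, 15059 bases away, which was lower in the Al group, at 2.88 ± 0.117 and 0.853 ± 0.201 scaled FPKM (SD, n = 3 each). Other partners lie much farther away. Before Phkb lies Gpt2, at a distance of 313398 bases and also lower in the Al group (37.6 ± 2.88 and 21.3 ± 1.02), and before Gbe1, 4447580 bases away, lies Vgll3, at 1.74 ± 0.129 and 8.32 ± 3.71. For Ugp2 the log2 fold change of the partner had the opposite sign: before it lies Mdh1, 185585 bases away, at 71.6 ± 2.55 and 129 ± 20.8. Before Gys1 lies Lhb, 12946 bases away, at 0.0405 ± 0.0243 in control cells and 0.414 ± 0.263 with Al. Lhb and Urah reached the filter through the Al group alone, so they had to be higher there, and their direction is not read. Ifna16, 31455 bases before Ifna13, had 0 in every library but Al replicate 2. These pairs were chosen after the levels were seen, and no relation between the partners was tested.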
